A study of Mus musculus with 36 samples.

Results

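The 9 genes described here, of fat cell formation and lipid handling, were followed in mouse pancreatic fibroblasts cultured alone or in contact with tumour cells. They were chosen by symbol: every row of the gene count table named Pparg, Cebpa, Plin2, Fabp4, Fabp5, Cd36, Lpl, Angptl4 or Pnpla2 was taken, which gave 9 of 39017 genes. The 36 libraries came from C57BL/6 fibroblasts and formed 9 groups of 4: a mono-culture, co-cultures with each of the tumour sub-clones E, H, K, M, N, T and V, and a co-culture with KPC1, a name that the labels leave unexplained. Co-culture lasted 48 h and the fibroblasts were then resolved from the tumour cells by sorting on the GFP that the tumour cells carried. The mono-culture samples bear the same growth note, so whether they were sorted too is not given in the sources used here. No drug, gene deletion or other treatment is given for any group, and no animal age. Nothing says that the 4 libraries of a group came from separate cultures, so p-values measure the spread between these libraries, which may be technical.

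Fat storage depends on a short chain of steps. The nuclear receptor PPARγ (Pparg) and the transcription factor C/EBPα (Cebpa) switch on each other and the genes of the fat cell. Lipoprotein lipase (Lpl) frees fatty acids from circulating triglyceride and is inhibited by Angptl4, Cd36 takes fatty acids up, the binding proteins Fabp4 and Fabp5 carry them inside the cell, Plin2 coats the lipid droplet and Pnpla2 (adipose triglyceride lipase) starts the release of stored fat. Pancreatic stellate cells, a resident fibroblast type of the pancreas, are known for storing lipid droplets when quiescent and for losing them when activated.

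Library totals lay between 12532122 and 21985538 counts. Levels are given as CPM, counts relative to the TMM-scaled library total, and levels of different genes are compared only as RPKM, which also divides by gene length. A filter on low counts kept 14439 genes, and 8 of the 9 genes passed it. Cd36 did not pass. Fabp4 passed through 3 mono-culture libraries and 1 clone K library above the cutoff of 0.555 CPM, so a difference from the co-cultures was partly built into its passing. Differences were tested with edgeR's quasi-likelihood test with Benjamini-Hochberg adjustment over all genes tested, and a gene was called at an adjusted p under 0.05. Fibroblast markers summed to between 19300 and 43000 CPM in the libraries, whereas adipocyte markers, 10 genes in all, summed to between 0.0598 and 1.49 CPM. Among the latter Cfd and Cidec had no count in any library, and the defining fat cell genes Adipoq and Plin1 had co-culture group means of at most 0.0304 and 0.0407 CPM. Epithelial markers, 12 genes, summed to between 2.74 and 3.47 CPM in mono-culture and to between 20 and 803 CPM in the co-cultures. Krt8, Krt18 and Krt19 were higher in 8 of 8 co-cultures (3.42% of all genes tested were), whereas Epcam stayed at co-culture means of 0.166 CPM or less.

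In co-culture these genes differed from the mono-culture in different directions (plot of fold changes by co-culture). In the mean of the 7 clonal co-cultures against the mono-culture, Cebpa and Angptl4 were higher and Fabp4, Fabp5 and Lpl were lower, while Pparg, Plin2 and Pnpla2 were not called. This made 5 of the 8 tested genes, where 49.2% of all genes tested were called in this comparison, 24.3% higher and 24.9% lower. The 5 include Fabp4, for which a difference was partly built into its passing of the filter. The median log2 fold change of the 8 was -0.20, against 0.01 over all genes. In bulk RNA, fewer cells of a type and less RNA per cell cannot be told apart.

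**Figure D1:**
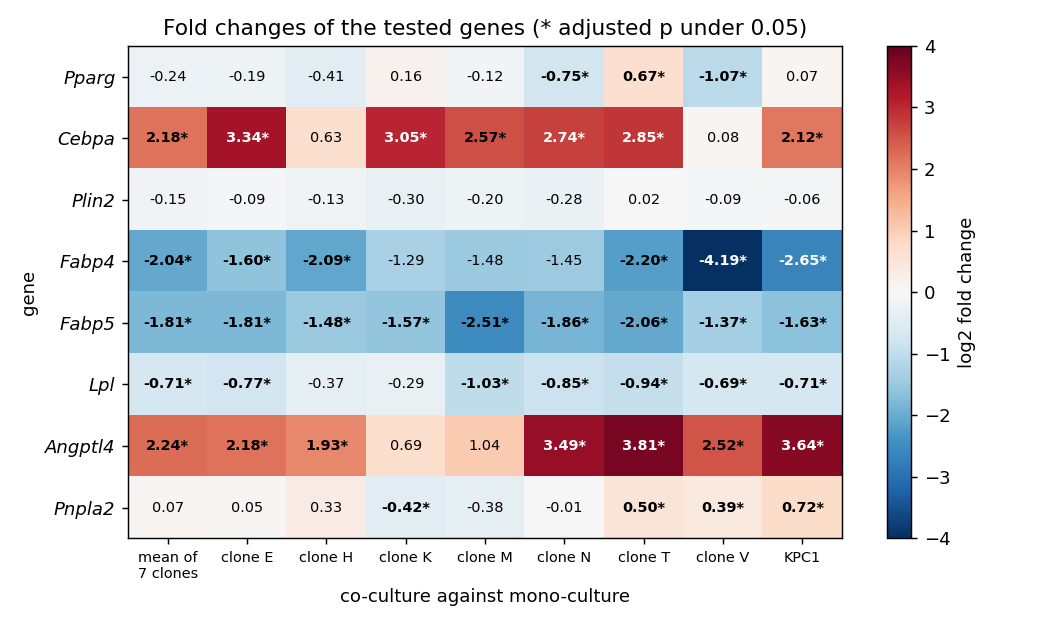
Log2 fold change of each tested gene (rows) in the mean of the 7 clonal co-cultures and in each of the 8 co-cultures against the mono-culture (columns), with colour and printed value on the same log2 scale and an asterisk for an adjusted p under 0.05 (edgeR). Fabp5 is negative and called in every column, Plin2 in none, and Cebpa and Angptl4 reach 3.34 and 3.81.

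Of the regulators, Cebpa changed most. In mono-culture it was near the lower end of detection, at 0.826, 0.3301, 1.06 and 0.32 CPM in the 4 libraries, which corresponds to 42 counts in all. Clone E gave the highest level, at 6.13, 7.58, 5.89 and 5.23 CPM. Every clone E library lay above every mono-culture library. With clone K the libraries held 3.06, 2.02, 8.301 and 6.93 CPM. With clone M they held 3.599, 2.73, 5.903 and 2.31 CPM. Replicates of these co-cultures were uneven, and the lowest clone K library still exceeded the highest mono-culture library. With clone N the values were 4.797, 5.31, 3.22 and 3.12 CPM. With clone T they were 7.98, 2.75, 3.28 and 3.82 CPM, and with KPC1 3.53, 2.05, 2.96 and 2.17 CPM. These 6 co-cultures did not overlap the mono-culture, and of all genes tested 11.5% lay above it in at least 6 co-cultures. In contrast, clone H libraries had 0.599, 0.606, 1.55 and 1.004 CPM and clone V libraries 0.356, 0.626, 0.599 and 1.02 CPM, and both overlapped it.

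Cebpa was accordingly called higher with 6 of the 8 tumour lines, from 4.36-fold with KPC1 (log2 fold change 2.12 ± 0.462, SE, adjusted p = 0.00021) to 10.1-fold with clone E (log2 3.34 ± 0.456, adjusted p = 1.7e-06). Over all genes tested, 11.4% were called higher with at least 6 of the 8 lines. The intervals with clones H (-0.33 to 1.58 on the log2 scale, 95%) and V (-0.93 to 1.08) included 0. For the mean of the clones the fold was 4.53 (log2 2.18 ± 0.396, adjusted p = 3.4e-05), and 21 of the 28 clonal libraries were above every mono-culture library. The F-test among the 7 clones gave an adjusted p of 4.1e-07. In the order of group means no neighbours were told apart, and the widest gap, between KPC1 and clone H, had an adjusted p of 0.051. In 6 of the 8 co-cultures the library with the most epithelial marker RNA was also the library with the most Cebpa, and in 3 of 8 the library with the least held the least. With clone E, the group with the highest Cebpa, the library lowest in epithelial RNA had the most. The part of the epithelial RNA in the Cebpa result was not tested.

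Pparg did not follow Cebpa. Mono-culture libraries held 10.6, 13.8, 15.9 and 10.01 CPM. With clone T every library was higher, at 20.3, 17.8, 19.7 and 21.98 CPM, and of all genes tested 24% lay wholly above the mono-culture there. This was a 1.59-fold difference (log2 0.67 ± 0.199, adjusted p = 0.0057). With clone V every library was lower, at 3.87, 4.72, 7.901 and 7.48 CPM, a 2.1-fold lower level (log2 -1.07 ± 0.207, adjusted p = 5.2e-05), where 26.4% of all genes lay wholly below. Clone N libraries had 4.85, 7.42, 7.12 and 10.4 CPM, of which 3 lay below the mono-culture range (log2 -0.75 ± 0.205, adjusted p = 0.004). The other 5 co-cultures were not called, with log2 fold changes between -0.41 with clone H and 0.16 with clone K. With clone H the adjusted p was 0.082, and Pparg passed the threshold there in 6 of 17 alternative analyses. A call in both directions in different co-cultures was made for 5.35% of all genes tested. Among the clones the F-test gave an adjusted p of 1.5e-07. In the order of group means, clone T was above the next group, clone K, by 0.51 ± 0.197 on the log2 scale (adjusted p = 0.037). Between these clones 41.4% of all genes differed. The next 7 steps down the order, from clone K to clone V, were not called. This order was set from the same values, so a called step only describes where a gap exceeded the spread. Over the 8 genes 2 such steps were called, and 1 without scaling or without clone T replicate 3 or 4.

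Both regulators are known to bind promoters of fat cell genes, and their own upstream sequence is shown because they moved apart. RefSeq start sites were given for 5 of the 9 genes on GRCm38.p6, the same assembly as mm10, with 3 starts for Pparg. The 250 bases before each start were searched on both strands for TTGCNNAA, a C/EBP-type sequence (in 9.56% of the 32851 such windows of all genes), for AGGTCA, the half-site of nuclear receptors (14.0%), for a PPAR-type repeat, AGGNCA followed after 1 base by AGGNCA, which can overlap the half-site (0.338%), and for TATAAA (12.4%). Capitals mark the matches. The Cebpa window, chr7:35119043-35119292 on the plus strand, held TATAAA at positions -30 to -25 from the start. The most downstream Pparg window, chr6:115421816-115422065 on the plus strand and within an intron of the longer transcripts, held TTGCNNAA at -215 to -208 and, on the opposite strand, at -16 to -9.
Cebpa: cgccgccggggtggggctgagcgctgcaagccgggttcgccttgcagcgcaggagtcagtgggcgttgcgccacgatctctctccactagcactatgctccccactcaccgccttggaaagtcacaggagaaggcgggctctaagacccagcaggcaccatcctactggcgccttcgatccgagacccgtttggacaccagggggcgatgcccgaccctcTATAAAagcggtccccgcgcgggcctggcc
Pparg: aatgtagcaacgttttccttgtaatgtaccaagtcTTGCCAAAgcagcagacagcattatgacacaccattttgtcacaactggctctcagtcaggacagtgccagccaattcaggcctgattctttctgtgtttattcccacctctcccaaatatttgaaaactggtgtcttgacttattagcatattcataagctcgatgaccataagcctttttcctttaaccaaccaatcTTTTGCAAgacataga
The Cebpa window was 66.4% G and C, and the Pparg window 40.8%, against a median of 52.4% over all windows. The other Pparg windows each held a single AGGTCA, and 1 of these Pparg windows also held TATAAA on the opposite strand at -29 to -24. The Plin2 and Cd36 windows each held a single AGGTCA, and the Pnpla2 window held no match. None of the 7 windows held the PPAR-type repeat. These matches describe the letters only, and gene counts do not separate the starts of Pparg. Pparg lies on chromosome 6 at 115360951 to 115490399 and Cebpa on chromosome 7 at 35119293 to 35121928, both on the plus strand. An annotated antisense gene overlaps each of them, and neither antisense gene was analysed here. Whether reads were counted by strand is not given in the sources used here.

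Next, fatty acid supply was examined. Lpl, on chromosome 8 at 68880491 to 68907448, was among the more abundant of the 9 genes, with 40.6 ± 2.59 RPKM in mono-culture (SD, n = 4). Its mono-culture libraries held 147, 171, 154 and 169 CPM. With clone M they held 82.8, 91.8, 67.7 and 70.8 CPM, the lowest group. With clone T they held 54.99, 93.7, 75.9 and 110.5 CPM. Every library of these co-cultures lay below the mono-culture range. Clone N libraries had 72.2, 103, 83.4 and 96.2 CPM. Those with clone E had 67.2, 120.3, 88.7 and 101 CPM, those with clone V 88.2, 101, 122 and 85.02 CPM and those with KPC1 80.5, 119, 93.6 and 98.95 CPM. None of these 4 groups overlapped the mono-culture either. With clone H the values were 106, 137, 123 and 130 CPM, also under the mono-culture range. Clone K was the only co-culture that overlapped it, at 106, 157, 142 and 118 CPM. Of all genes tested, 7.69% were under the mono-culture range in at least 7 co-cultures.

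Lpl was called lower in 6 of the 8 co-cultures (11.6% of all genes tested were, in at least 6), from 1.62-fold with clone V (log2 -0.69 ± 0.175, adjusted p = 0.0011) to 2.05-fold with clone M (log2 -1.03 ± 0.176, adjusted p = 5.3e-05). With clone H the log2 fold change was -0.37 ± 0.174 (adjusted p = 0.071), and this passed the threshold in 6 of 17 alternative analyses. With clone K it was -0.29 ± 0.174 (adjusted p = 0.25). For the mean of the clones Lpl was 1.63-fold lower (log2 -0.71 ± 0.124, adjusted p = 2.1e-05), with 27 of 28 libraries under the lowest mono-culture library. The clones differed among themselves (F-test, adjusted p = 0.0016), but no pair of neighbours in the order of levels was separated.

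**Figure D2:**
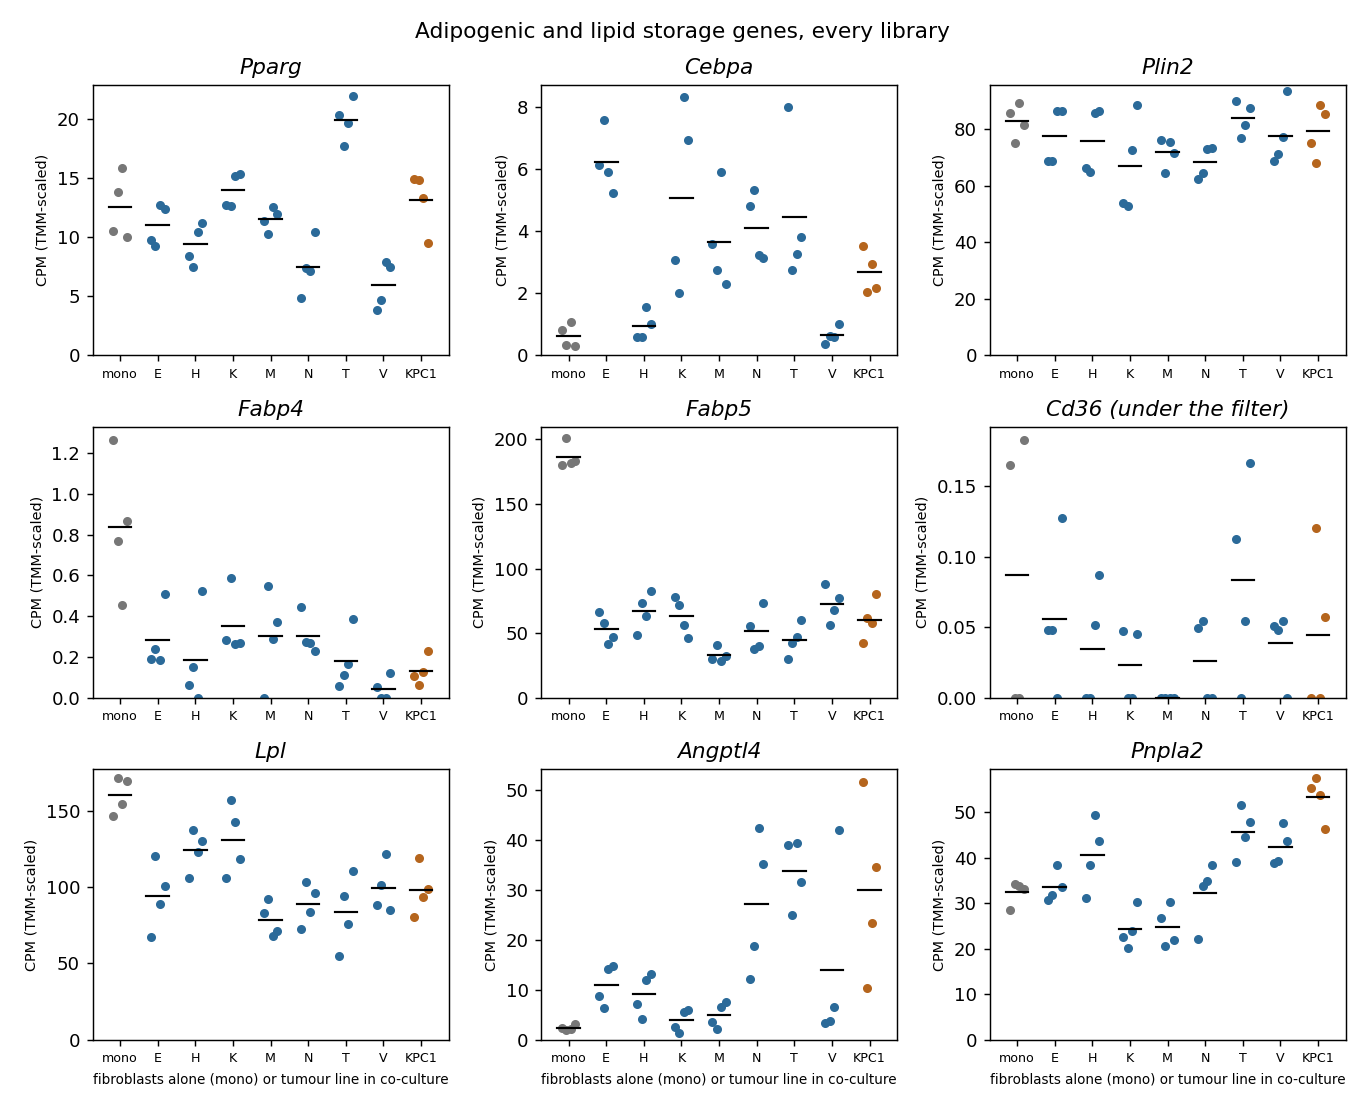
CPM of the 9 genes in every library (points) with the mean of each group of 4 (bars), for the mono-culture (grey), the 7 clonal co-cultures (blue) and KPC1 (orange), each panel on its own axis from 0. Fabp5 and Lpl are highest in mono-culture, Cebpa and Angptl4 are lowest there, and a single clone V library holds 42.1 CPM of Angptl4.

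Angptl4, the secreted inhibitor of lipoprotein lipase and a well-known PPAR target, changed in the opposite direction. It lies on the minus strand of chromosome 17 at 33773750 to 33781830. In mono-culture it was found at 2.37, 1.93, 2.21 and 3.06 CPM. With clone T it reached 38.98, 25.1, 39.5 and 31.7 CPM. With clone N the libraries held 12.1, 18.8, 42.6 and 35.3 CPM. Every value of both groups exceeded every mono-culture value. With KPC1 they ranged most widely, at 51.8, 10.4, 23.5 and 34.7 CPM. With clone E they held 8.71, 6.42, 14.2 and 14.7 CPM and with clone H 7.18, 4.19, 11.97 and 13.2 CPM. Again no library of these groups overlapped the mono-culture. Clone V libraries had 3.26, 3.803, 6.65 and 42.1 CPM, so that 1 of the 4 stood far above the others. Libraries with clone K (2.499, 1.43, 5.604 and 5.85 CPM) and clone M (3.48, 2.19, 6.65 and 7.61 CPM) overlapped the mono-culture.

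The gene was called higher in 6 of the 8 co-cultures (11.4% of all genes tested were, in at least 6, and 11.5% lay wholly above the mono-culture in at least 6), up to 14-fold with clone T (log2 3.81 ± 0.684, adjusted p = 3.6e-05), 12.5-fold with KPC1 (log2 3.64 ± 0.681, adjusted p = 4e-05) and 11.2-fold with clone N (log2 3.49 ± 0.68, adjusted p = 0.00015). For the mean of the clones the fold was 4.71 (log2 2.24 ± 0.58, adjusted p = 0.002), with 25 of 28 libraries above every mono-culture library. The call for clone V (log2 2.52 ± 0.673, adjusted p = 0.002) rested on replicate 4, and without it the log2 fold change was 0.92 and the adjusted p 0.16. That of clone H (log2 1.93 ± 0.673, adjusted p = 0.017) was lost without its replicate 4, at log2 1.69 and an adjusted p of 0.051. With clones K and M the log2 fold changes of 0.69 and 1.04 had intervals of -0.67 to 2.06 and -0.33 to 2.40. The F-test among clones gave an adjusted p of 0.00024.

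The order of Angptl4 within a co-culture was set beside that of the epithelial marker RNA (plot against summed epithelial markers). In 7 of the 8 co-cultures the library with the least epithelial RNA was the library with the least Angptl4, and in 3 of 8 the library with the most was the highest. The library with the least epithelial RNA was replicate 2 in 7 of the 8 co-cultures, and in 6 of these 7 it was also the lowest in Angptl4, so most of the matches are of 1 replicate number. In clone V the epithelial sums were 39.3, 33.8, 127 and 220 CPM, and replicate 4 was highest and replicate 3 next in both measures. In KPC1 they were 593, 187, 364 and 299 CPM, with replicate 1 highest and replicate 2 lowest in both measures. The part of the epithelial RNA in the Angptl4 result was not tested. The same held for Plin2, whose lowest library was the lowest in epithelial RNA in 7 of 8 co-cultures, and for Pparg in 6 of 8, where replicate 2 was the lowest in 6 and 5 co-cultures. For Fabp5 and Lpl this was so in 1 of 8 each.

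**Figure D3:**
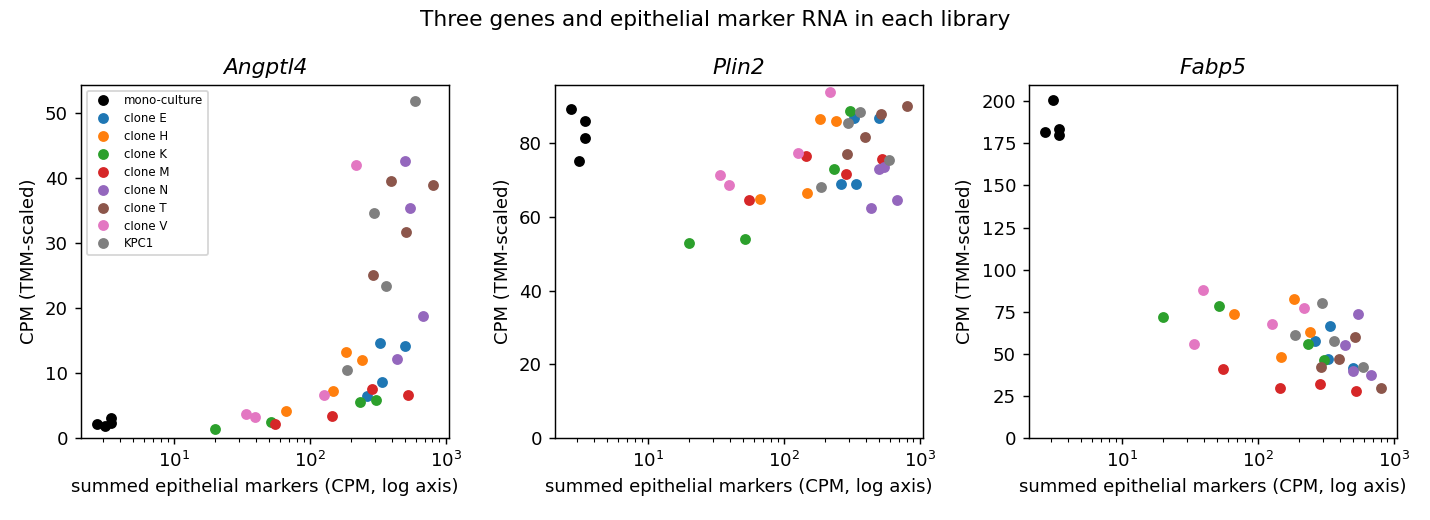
CPM of Angptl4, Plin2 and Fabp5 (vertical, from 0) against the summed CPM of 12 epithelial markers (horizontal, log axis), 1 point per library, coloured by group. Mono-culture libraries lie at 2.74 to 3.47 CPM on the horizontal axis and co-culture libraries at 20 to 803 CPM, and within a co-culture the Angptl4 points tend to be lowest where the epithelial sum is lowest.

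Cd36, the fatty acid transporter, was close to absent. It had 30 counts over the 36 libraries, no count in 17 of them and at most 4 in any, and 35 of the 36 were at or under the floor of 3 counts per library. It lies on the minus strand of chromosome 5 at 17781690 to 17888801. Group sums ran from 0 with clone M, which allows up to 0.0473 CPM by the floor of 3 counts over the group, to 7 in mono-culture. The ratio to the mono-culture had a counting interval that included 1 for 7 of the 8 co-cultures and lay under 1 for clone M (exact, 95%, counting error only). Without the filter, edgeR called Cd36 in no comparison: the adjusted p was 0.085 for clone M (unadjusted 0.012) and 0.11 for the mean of the clones (unadjusted 0.04).

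Of the intracellular carriers, Fabp5 was lower with every line and Fabp4 was scarce. Fabp5, on chromosome 3 at 10012548 to 10016607, had the highest length-scaled level of the 9 genes in mono-culture, at 60.1 ± 1.88 RPKM (SD, n = 4). Its mono-culture libraries held 180.2, 201, 182 and 183 CPM. Clone M libraries held 30.1, 40.9, 28.02 and 32.1 CPM, and clone T libraries 29.7, 42.4, 46.98 and 59.8 CPM. None of these 8 values approached the mono-culture range. The values were 55.1, 37.5, 39.8 and 73.4 CPM with clone N and 66.5, 57.8, 41.4 and 47.1 CPM with clone E. They were 42.1, 61.5, 57.5 and 80.01 CPM with KPC1 and 78.2, 71.8, 55.9 and 46.3 CPM with clone K. The least reduced groups were clone H, with 48.4, 73.5, 63.3 and 82.5 CPM, and clone V, with 88.1, 56.1, 67.6 and 77.4 CPM. The highest co-culture library of all, clone V replicate 1, still lay well below the lowest mono-culture library. All 8 co-cultures were under the mono-culture range for 4.17% of the genes tested.

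Fabp5 was called lower in 8 of 8 co-cultures, which held for 3.19% of all genes tested. The change ran from 2.58-fold with clone V (log2 -1.37 ± 0.222, adjusted p = 5.1e-06) to 5.69-fold with clone M (log2 -2.51 ± 0.232, adjusted p = 5.1e-09). For the mean of the clones it was 3.5-fold (log2 -1.81 ± 0.143, adjusted p = 2.3e-11). The step from the mono-culture to clone V was the other neighbour step called among the 64 steps tested over the 8 genes. Here too the order was set from the same values. The clones also differed from each other (F-test, adjusted p = 9e-04), though no neighbouring pair of co-cultures was separated. The table holds a near copy of the gene, Fabp5l2, with 5 counts in all. Reads that fit both copies may have been dropped or split, so the Fabp5 level is uncertain in this respect.

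Fabp4, the carrier typical of mature fat cells, lies on the minus strand of chromosome 3 at 10204088 to 10208576 and was scarce throughout. In mono-culture its libraries had 1.27, 0.7702, 0.456 and 0.868 CPM, from 62 counts. In co-culture the group sums were between 3 counts with clone V and 26 with clone K, and 15 of all 36 libraries were at or under 3 counts. By counting alone, clone V stood at 0.0457 of the mono-culture level (exact interval 0.00918 to 0.140). KPC1 stood at 0.149 (0.0653 to 0.302) and clone K at 0.385 (0.234 to 0.618). In the fit Fabp4 was called lower with 5 of the 8 lines, namely E, H, T, V and KPC1, and with KPC1 the log2 fold change was -2.65 ± 0.694 (adjusted p = 0.0015). Over all genes tested, 11.6% were called lower with at least 6 of the 8 lines, and the share for at least 5 was not counted. The call with clone E (log2 -1.60 ± 0.622, adjusted p = 0.048) was lost in 8 of 15 alternatives. The F-test did not separate the clones (adjusted p = 0.088), though it did without clone H replicate 4 (0.016) or clone M replicate 1 (0.033). Since its passing of the filter rested on the mono-culture, these calls are a description of a low gene.

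Storage and release came last. Plin2, on the minus strand of chromosome 4 at 86648386 to 86670060, was abundant. It had 82.9 ± 6.16 CPM in mono-culture (SD, n = 4), with libraries from 75.0 to 89.3 CPM, and all 36 libraries lay between 52.8 and 93.6 CPM. It was called in none of the 8 co-cultures, nor in the mean of the clones (log2 -0.15 ± 0.099, interval -0.35 to 0.04, adjusted p = 0.2). Of all genes tested, 18.8% were likewise called in no co-culture. The lowest group was clone K, with 53.98, 52.8, 72.8 and 88.7 CPM (log2 -0.30 ± 0.133, adjusted p = 0.11). Without its replicate 4 it was called (log2 -0.47, adjusted p = 0.0086). All 4 clone N libraries were under the mono-culture range, at 62.3, 64.6, 72.9 and 73.5 CPM, as were 20.4% of all genes tested, but the difference did not pass (log2 -0.28 ± 0.133, adjusted p = 0.095). It passed in 2 of 17 alternatives. The F-test among clones gave an adjusted p of 0.25, and of 0.023 without clone K replicate 4. With the replicate number as a block in edgeR, Plin2 was called lower with clones K and N and for the mean of the clones. The adjusted p was 0.0094, 0.014 and 0.048, and that of the F-test 0.019.

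Pnpla2, the first lipase of fat release, on chromosome 7 at 141455198 to 141460743, split the co-cultures. Mono-culture libraries held 28.6, 34.2, 33.8 and 33.1 CPM. They were exceeded by every library with KPC1, at 55.3, 57.6, 53.9 and 46.4 CPM, as held for 27.4% of all genes tested. The same was true with clone T, at 39.04, 51.5, 44.7 and 47.9 CPM (24% of all genes). Clone V libraries were also all higher, at 38.9, 39.3, 47.7 and 43.7 CPM (25.8%). With clone K, in contrast, 3 of the 4 libraries were under the mono-culture range, at 22.5, 20.1, 24 and 30.3 CPM. Clone M behaved alike, at 26.7, 20.6, 30.3 and 21.9 CPM. The other 3 clones overlapped it, at 31.2 to 49.3 CPM with clone H, 22.3 to 38.3 CPM with clone N and 30.8 to 38.5 CPM with clone E.

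Pnpla2 was called higher with KPC1, at 1.64-fold (log2 0.72 ± 0.147, adjusted p = 0.00011), with clone T, at 1.41-fold (log2 0.50 ± 0.147, adjusted p = 0.0055), and with clone V, at 1.31-fold (log2 0.39 ± 0.147, adjusted p = 0.024). The clone V call was lost in 5 of 17 alternatives. With clone K the gene was 1.33-fold lower (log2 -0.42 ± 0.149, adjusted p = 0.046), a call lost in 7 of 17 alternatives, and with clone M the log2 fold change was -0.38 ± 0.149 (adjusted p = 0.062), which passed in 8 of 17 alternatives. For the mean of the clones it was 0.07 ± 0.112 (adjusted p = 0.66), while the F-test among clones gave an adjusted p of 3e-06.

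The co-cultures differed in how many of the genes were called against the mono-culture. With clone T 7 of the 8 tested genes were called (49.8% of all genes tested were called in this comparison), with clone V 6 (58.3%) and with KPC1 6 (59%). With clones E and N 5 each were called (32% and 39%). With clones H, K and M it was 3 each (54.2%, 19.1% and 23%). With clone H the share of the 8 genes was under that over all genes, and with the other 7 lines it was over it, a description of few genes that was not tested. Fabp4 is counted with clones E, H, T, V and KPC1. A difference from the co-cultures was partly built into its passing of the filter. All 8 comparisons share the same 4 mono-culture libraries. Among the 7 clones the F-test called 6 of the 8 genes, where 67.5% of all genes were called.

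KPC1 was then set against the mean of the 7 clones. Angptl4 was 2.65-fold higher with KPC1 (log2 1.41 ± 0.396, adjusted p = 0.0055) and Pnpla2 1.57-fold higher (log2 0.65 ± 0.105, adjusted p = 1.8e-05), so 2 of 8 genes were called where 41.1% of all genes were. For Pnpla2, 3 of the 4 KPC1 libraries were above every clonal library, and for Angptl4 1 was. Without KPC1 replicate 1, the library with 51.8 CPM, the log2 fold change of Angptl4 was 1.01 and its adjusted p 0.096. The 6 genes not called had log2 differences from -0.61 for Fabp4 (interval -1.88 to 0.67) to 0.31 for Pparg (interval 0.02 to 0.60).

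Per length, the 9 genes spanned a wide range (plot of RPKM by gene). In mono-culture Fabp5 was followed by Plin2 at 45.9 ± 4.13 RPKM, Lpl, Pnpla2 at 12.9 ± 0.909 and Pparg at 6.17 ± 1.31 RPKM (SD, n = 4). Fabp4, Angptl4 and Cebpa were each under 1 RPKM there, at 0.982 ± 0.401, 0.819 ± 0.178 and 0.254 ± 0.1496. With clone T, Plin2 was the highest of the 9 by this measure, at 44.2 ± 4.34 RPKM. Fabp5 was at 13.8 ± 4.24 and Angptl4 at 11 ± 2.26 RPKM there. RPKM depends on the gene length used, and the annotation behind it is not given in the sources used here. In the supplied annotation the exons of all transcripts together cover 3567 of the 4060 bases of Fabp5 and 4489 of 4489 of Fabp4. A length so taken can exceed that of the main transcript, so the order of the genes is uncertain.

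**Figure D4:**
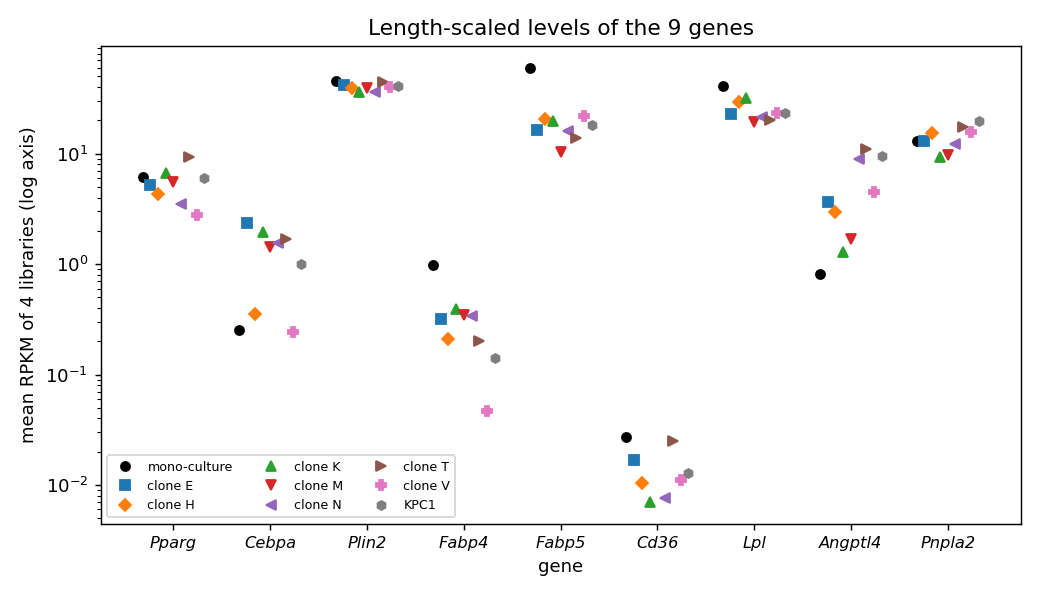
Mean RPKM of 4 libraries (log axis) for each of the 9 genes, with a symbol per group and no error bars. Plin2 stays between 35.9 and 45.9 RPKM in the 9 groups while Fabp5 falls from 60.1 in mono-culture to 10.4 with clone M, and Cd36 with clone M, at 0, cannot be drawn.

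The genes whose group means over the 9 groups ran most like each of these were found by the root mean square distance between centred log2 CPM values, among the 11694 other genes of at least 2 CPM (11695 for Fabp4, itself under 2 CPM). Lpl was closest to Pak3 (distance 0.0880, where the profile of Lpl itself varied by 0.325) and Wbscr17 (0.116). Pnpla2 was closest to Aatf (0.0989, own variation 0.367) and Magohb (0.102). For Pparg they were Lrrn3 (0.245, own variation 0.497) and Samd10 (0.317), for Cebpa Map3k5 (0.336, own variation 1.21) and Iqgap2 (0.426), and for Angptl4 Coro2a (0.298, own variation 1.28) and Ezr (0.368). Fabp5 ran most like Nckap5 and Apol9a (both 0.247, own variation 0.655), Fabp4 like Tox (0.243, own variation 0.874) and Ifi27l2a (0.274), and Plin2, which hardly varied (0.113), like Dcps (0.0584) and Gak (0.0599).

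Genes around the 9 were then described by role, in the mean of the clones against the mono-culture, in which 24.3% of all genes tested were called higher and 24.9% lower. Of all genes tested, 3.42% were called higher with 8 of 8 lines and 3.19% lower. With at least 6 lines the shares were 11.4% higher and 11.6% lower. These lists were not tested as sets. Of 22 tested adipogenic regulators, 6 were higher and 5 lower, and their median was 0.01 on the log2 scale, equal to that of all genes. Ppargc1a, the coactivator PGC-1α, fell in 8 of 8 co-cultures, from 12.3 ± 1.74 CPM in mono-culture (SD, n = 4) to group means of 2.23 to 6.64 CPM (log2 -1.89 ± 0.190, SE, adjusted p = 1.7e-09). Prdm16, a regulator of brown fat, was lower (-0.63, adjusted p = 0.00039), as were Ebf2, Klf15 and Cebpd (-0.55, -0.50 and -0.51). Klf5 and Cebpb were higher at log2 1.11 (adjusted p = 1.9e-06) and 0.78 (1.6e-05), each with 6 of 8 lines. Zfp423, Ppargc1b, Med1 and Foxo1 were the others called higher (1.22, 0.59, 0.32 and 0.27), and Zfp423 had a mean under 2 CPM over the 36 libraries.

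Of 12 genes that restrain fat cell formation, 3 were higher and 3 lower (median 0.09). Hes1, a Notch target, was at 23.1 ± 20.6 CPM in mono-culture and between 49.7 and 81.9 CPM in the co-cultures (log2 1.45 ± 0.298, adjusted p = 0.00018), and Twist1 was higher by 0.80 (adjusted p = 2.8e-08), each with 8 of 8 lines. Nr2f2 was also higher (0.41). Dlk1, the preadipocyte marker Pref-1, was lower (-1.16 ± 0.234, adjusted p = 0.00015) with 6 lines, the deacetylase Sirt1 was lower with 7 (-0.68, adjusted p = 3.3e-07), and Klf2 was lower (-0.59).

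Of 14 tested lipid droplet and triglyceride genes, 3 were higher and 6 lower (median -0.15), so 9 were called where 49.2% of all genes were. Plin4, another droplet coat protein, fell from 47.9 ± 9.50 CPM to between 2.33 CPM with KPC1 and 30.5 CPM with clone K (log2 -2.32 ± 0.195, adjusted p = 8.2e-11, lower with 7 lines), unlike Plin2. Gpam, which starts glycerolipid synthesis, was lower with 8 of 8 lines (-1.02 ± 0.0954, adjusted p = 3.7e-10), and Bscl2 (seipin) with 7 (-0.59, adjusted p = 4.5e-07). Fitm2, which helps form droplets, was higher with 6 lines (0.94 ± 0.124, adjusted p = 2.3e-07). In the mean of the clones Soat1 and Hilpda were higher too (0.32 and 0.39). Only some of the 6 lower genes of this list are named here. Of 7 lipolysis genes 4 were lower, where 24.9% of all genes were, and 1 was higher (median -0.33). Abhd5, the coactivator of Pnpla2, was lower (-0.33, adjusted p = 8.7e-05). The Pnpla2 inhibitor G0s2 was lower from a level that never exceeded a group mean of 0.422 CPM in co-culture (-1.49). Aqp3 and Faah were lower too (-0.99 and -0.97). G0s2, Aqp3 and Faah each had a mean under 2 CPM over the 36 libraries. Where 10 counts were needed in every library, 1 lipolysis gene was called lower and 1 higher. Lipa, the lysosomal lipase, was higher (0.23, adjusted p = 0.032).

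**Figure D5:**
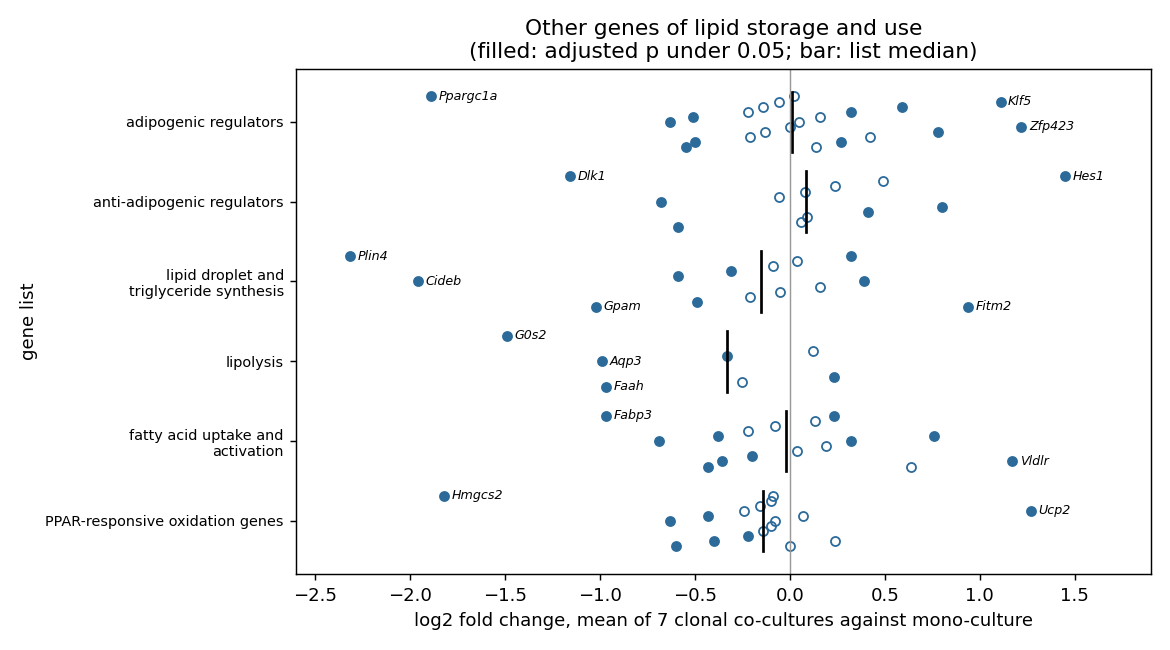
Log2 fold change of every tested gene of 6 lists (rows) in the mean of the 7 clonal co-cultures against the mono-culture (horizontal axis), filled where the adjusted p was under 0.05 (edgeR), with a bar at the list median and names at the called genes beyond 0.9. Plin4 at -2.32 and Ppargc1a at -1.89 lie far left, and list medians stay between -0.33 and 0.09.

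Of 16 uptake and activation genes, 4 were higher and 6 lower (median -0.02). The lipoprotein receptor Vldlr was higher with 7 lines (log2 1.17 ± 0.165, adjusted p = 8.4e-07) and Cav1, the coat protein of caveolae, with 8 (0.76 ± 0.0873, adjusted p = 2e-08), besides Acsl4 and Lmf2 (0.32 and 0.23). Slc27a3 and Dbi, an acyl-CoA binding protein, were lower (-0.69, adjusted p = 5e-05, and -0.43, adjusted p = 0.0028). Of 17 PPAR-responsive oxidation genes, 1 was higher and 6 lower (median -0.14), 7 in all where 49.2% of all genes were called. The higher gene was the mitochondrial carrier Ucp2 (1.27 ± 0.280, adjusted p = 4e-04), with group means from 14.2 CPM with clone V to 76.1 CPM with clone T against 17.6 ± 2.41 CPM in mono-culture. Decr1, Cpt1a, which admits fatty acids to mitochondria, and Acadvl were lower (-0.63, -0.60 and -0.43). For both lists, only some of the 6 lower genes are named here.

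Marker lists of cell types gave the setting of these values, again in the mean of the clones, where 24.3% of all genes tested were higher and 24.9% lower. Of 12 fibroblast markers 5 were higher, namely Fap (log2 5.13 ± 0.263, adjusted p = 6.5e-15), Pdgfrb (0.93), Fn1 (0.71), Col5a1 (0.56) and Thy1 (0.52), and Lum (-1.22) and Pdgfra (-0.70) were lower. Of 8 tested epithelial markers 7 were higher and none lower, and Cdh1 was higher with 6 of 8 lines (log2 3.74, adjusted p = 0.0066). In mono-culture Krt8, Krt18 and Krt19 had means of 0.0229, 0.161 and 0.199 CPM, under the filter cutoff of 0.555 CPM. They passed through the co-cultures, so a higher level there was partly built in. Where 10 counts were needed in every library, 1 epithelial marker was called higher. Of 4 tested macrophage markers Cd68 was higher (1.01) and Lyz2 lower (-3.49), whereas Ptprc, which all leukocytes carry, stayed at group means of 0.0530 CPM or less in co-culture. Of 4 tested endothelial markers Vwf was higher (1.08) and Tek lower (-1.11). Lyz2, Vwf and Tek each had a mean under 2 CPM over the 36 libraries. The single adipocyte marker tested, Slc2a4, was not called (-0.63, adjusted p = 0.062).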

How the data were processed

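RNA of mouse pancreatic fibroblasts was measured in 36 poly(A)-selected libraries, made per the labels with a strand-specific kit from 200 ng of RNA and 14 PCR cycles and read as 76 bp paired ends. The submitters' processing notes name STAR, featureCounts, edgeR and the mm10 build; versions, annotation and the strand setting of the counting are not given in the sources used here. Per gene, the authors deposited unscaled read counts, whole numbers for 39017 genes, and RPKM values, in which counts are divided by gene length and by the library's total, for 37746 genes. These deposited RPKM values followed library size at 0.9997 to 1.000 times their median relation. No row lacked a gene name and no column of another series was present.

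Groups were taken from the labels. Counts were filtered with filterByExpr, which left 14439 genes, scaled by TMM and fitted with 1 coefficient per group in edgeR 4.0.16 (R 4.3.3; estimateDisp, robust glmQLFit, glmQLFTest); p-values were adjusted by Benjamini-Hochberg over all genes. CPM used a prior count of 1 only for log2 profiles. Alternatives left out each library in turn, fitted only the 8 libraries compared, took the replicate number as a block, asked for 10 or more counts in every library or for none, used RLE or no scaling, or replaced the test by DESeq2 1.42.0 or by limma-trend (limma 3.58.1) on RPKM with 0.1 or 1 added before log2. The tests were tested on simulated data. With 12532122 to 21985538 counts per library, counting intervals (exact, 95%) and floors of 3 counts cover counting error only, since PCR reads are not independent molecules. No library was taken for a copy of another: over the 54 pairs within groups, chi-square divided by its degrees of freedom was at least 5.48.

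The 9 genes and the lists were chosen with earlier results of these data known. Named genes are the 9, for each list up to 4 called genes with the largest change and a mean of at least 2 CPM, and the 2 nearest profiles per gene; other called list genes were named after their values were seen. Gene positions are those of the GENCODE annotation supplied for mm10, and upstream sequences are from RefSeq on GRCm38.p6.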

Additional observations from a re-analysis of the deposited data

Results flagged for a closer look

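Within groups of 4 libraries, the highest or lowest library was set apart by Dixon's ratio (the gap to its neighbour over the whole range, above the 95% critical value) in 4 of 80 sets of values, the number that chance alone gives. Angptl4 in clone V co-culture had a ratio of 0.913, with replicate 4 at 42.1 CPM and the others at 3.26 to 6.65. Fabp4 in clone K co-culture had a ratio of 0.942, with replicate 2 at 0.585 CPM against 0.264 to 0.283. Fabp5 in mono-culture had a ratio of 0.848, with replicate 2 at 201 CPM against 180 to 183. Cd36 in clone V co-culture had a ratio of 0.884, where 1 library had no count and the others 1 each.

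The 7 clonal co-cultures differed from each other by edgeR's F-test with adjustment over all genes in 6 of the 8 tested genes. The adjusted p was 1.5e-07 for Pparg, 4.1e-07 for Cebpa, 3e-06 for Pnpla2, 0.00024 for Angptl4, 9e-04 for Fabp5 and 0.0016 for Lpl. Between KPC1 and the mean of the clones, the difference itself passed for Angptl4, at 1.41 on the log2 scale, and for Pnpla2, at 0.65.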

How the results depend on the processing

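For the mean of the clones, Cebpa, Angptl4, Fabp4, Fabp5 and Lpl kept their direction and their call in every alternative in which they were tested; Cebpa and Fabp4 were left out where 10 counts were needed in every library, so 3 genes were called there, and 3 likewise with clone E. With clone H, 3 calls became 5 without scaling, 5 with log2(RPKM + 0.1), 5 with only the 8 libraries compared and 6 with the replicate block; with clone M, 3 became 5 with either RPKM scale and 5 with only the 8 libraries. Leaving out a library gave 3 to 4 calls with each of these clones and 1 to 3 for KPC1 against the clones. Needing 10 counts in every library left 2 calls among lipolysis genes, 1 among macrophage, 0 among endothelial and 1 among epithelial markers, since fewer genes were tested. Among adipocyte markers 1 was called without scaling and 1 without the filter, and leaving out a library gave 0 to 1, for macrophage and endothelial markers 1 to 2. Neighbour steps called numbered 1 without scaling, 4 with log2(RPKM + 1), 5 with the block and 1 to 4 when a library was left out. Other changes had causes that were not tested.

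Values that changed sign were all uncalled: Pnpla2 for the mean of the clones was -0.01 with log2(RPKM + 0.1); Pnpla2 was 0.01 with clone N in the 8 libraries, and -0.02 to 0.10 (clone E) and -0.09 to 0.12 (clone N) when a library was left out; Plin2 with clone T was -0.05 without scaling and with either RPKM scale, -0.01 with 10 counts in every library and -0.02 to 0.07 when a library was left out; Cebpa with clone V was -0.02 without scaling, -0.01 with log2(RPKM + 1) and -0.20 to 0.42; Pparg with KPC1 was -0.02 without scaling and with either RPKM scale, and -0.03 to 0.21; Pparg with clone M was -0.23 to 0.02 and Plin2 with KPC1 -0.13 to 0.01. Of the 38 called values of single genes by line, 5 lost the call under some alternative, and of the 26 not called, 10 gained one.

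Same-numbered libraries did not deviate together throughout: correlations of their deviations ran from -0.275 to 0.477 over 28 pairs of co-cultures, with 17 over 0.1, and from -0.306 to 0.158 with the mono-culture, with 1 of 8 over 0.1, so the numbers were not taken to pair the samples. With the replicate block Plin2 was called lower for the mean of the clones (-0.16, adjusted p = 0.048), which made 6 calls, and with clones K (-0.33, 0.0094) and N (-0.28, 0.014); 8 genes differed among clones, Plin2 (0.019) and Fabp4 (0.044) included. Depth limits Cd36 and Fabp4, as given above.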
